A study of Mus musculus with 6 samples.

Results

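Hox genes are the homeobox transcription factor genes whose order along the chromosome follows the order of the body regions they pattern. A mouse has 4 clusters of them, Hoxa, Hoxb, Hoxc and Hoxd, and a number shared between clusters marks a paralog group, from group 1 at the 3′ end to group 13 at the 5′ end. Fibroblasts taken from different parts of the body keep different sets of active Hox genes in culture, so the set is often read as a record of where a fibroblast came from. In the gut the groups near the 5′ end are active in the hindgut, and Hoxa13 and Hoxd13 are known for patterning its terminal part.

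The members were chosen by symbol, as every gene named Hoxa, Hoxb, Hoxc or Hoxd followed only by digits. The rule found 39 of the 55401 genes in the count table, 11 in Hoxa (chromosome 6), 10 in Hoxb (chromosome 11), 9 in Hoxc (chromosome 15) and 9 in Hoxd (chromosome 2). Groups 1 to 3 are called anterior here, groups 4 to 8 central and groups 9 to 13 posterior.

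The 6 RNA-seq libraries were made from fibroblasts grown out of tumours (cancer-associated fibroblasts, CAFs), 3 from Thbs2KO mice and 3 from WT mice. Thbs2 encodes the secreted matricellular glycoprotein thrombospondin-2. All tumours had grown from mouse tumour organoids placed in the rectum, and the CAFs of both genotypes were cultured on fibronectin in medium with serum before RNA was taken. The sources used here do not give the strain, sex or age of the hosts, the genotype of the organoids, the Thbs2 allele, or whether replicates are separate mice or cultures. The p-values therefore cover no more than library-to-library spread, which may be technical.

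Total expected counts were 19649066 to 20860335 per Thbs2KO library and 23061568 to 24417464 per WT library, and Hox genes held 4698 to 5088 and 5456 to 6159 of them. Thbs2 measured 412 to 538.2 CPM (TMM-scaled CPM, a count relative to library size) in the Thbs2KO libraries and 2327 to 4166 CPM in the WT libraries, as labelled. All 10 fibroblast markers passed the count filter, and their summed level was 28449.9 to 40084 CPM in Thbs2KO and 29322 to 31937 CPM in WT. Counts of Thbs2KO replicates 1 and 2 differed least (chi-square over genes divided by its degrees of freedom, 3.78), and every other pair gave 15.7 to 121.8. Epithelial markers, 7 of 10 past the filter, summed to 12.5 to 18.0 CPM in Thbs2KO and 24.6 to 34.0 CPM in WT, and Cdx2 was at 0 in 5 of the 6 libraries. Pericyte and smooth muscle markers, 7 of 8 past the filter and none at 0 throughout, summed to 413.9 to 551.6 CPM in Thbs2KO and 400.1 to 1397 CPM in WT. Glial and neuronal markers, 2 of 5 past the filter and Sox10 at 0 throughout, summed to 9.34 to 13.2 CPM in Thbs2KO and 14.4 to 18.1 CPM in WT. Endothelial markers, 2 of 4 past the filter and none at 0 throughout, summed to 31.3 to 50.5 CPM in Thbs2KO and 11.6 to 31.6 CPM in WT. Immune markers, 3 of 8 past the filter with Cd3e at 0 throughout, summed to 2.10 to 8.70 CPM in Thbs2KO and 3.77 to 13.998 CPM in WT. Of 4 mesothelial markers 1 passed the filter, Upk3b and Lrrn4 were at 0 throughout, and the sums were 0.831 to 1.18 CPM in Thbs2KO and 0.215 to 1.14 CPM in WT.

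The sequences just upstream of 3 genes are shown because the results turn on them. Hoxd8 had the smallest p between the genotypes, and Hoxa13 and Hoxd13 had the widest spread between libraries. Each is the 250 bases before the transcription start in RefSeq (GRCm38.p6), written 5′ to 3′ on the gene's own strand. Capitals mark matches on either strand to 3 motifs, the TATA box (letters TATAAA), the CCAAT box (its 5 letters) and the GC box (letters GGGCGG).
Hoxd8 (chr2:74704365-74704614, plus strand): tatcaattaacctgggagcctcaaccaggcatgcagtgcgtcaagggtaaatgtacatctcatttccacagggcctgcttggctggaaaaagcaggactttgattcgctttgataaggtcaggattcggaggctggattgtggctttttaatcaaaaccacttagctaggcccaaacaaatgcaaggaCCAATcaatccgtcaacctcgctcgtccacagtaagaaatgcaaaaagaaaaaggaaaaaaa
Hoxa13 (chr6:52260881-52261130, minus strand): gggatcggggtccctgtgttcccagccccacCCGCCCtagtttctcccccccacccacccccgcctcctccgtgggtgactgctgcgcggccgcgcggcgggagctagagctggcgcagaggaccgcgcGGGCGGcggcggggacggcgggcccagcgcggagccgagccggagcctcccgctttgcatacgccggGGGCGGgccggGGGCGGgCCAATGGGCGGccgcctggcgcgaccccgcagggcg
Hoxd13 (chr2:74667975-74668224, plus strand): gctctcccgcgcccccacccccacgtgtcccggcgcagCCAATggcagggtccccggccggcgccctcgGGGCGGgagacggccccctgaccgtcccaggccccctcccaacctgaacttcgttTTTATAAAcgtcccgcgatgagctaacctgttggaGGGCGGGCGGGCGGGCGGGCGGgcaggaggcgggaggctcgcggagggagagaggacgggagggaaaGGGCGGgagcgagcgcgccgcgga

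The Hoxa13 and Hoxd13 windows were rich in CG dinucleotides, with 35 and 31, and the Hoxd8 window held 6, the median over 32851 upstream windows of all genes. As many CG dinucleotides as in Hoxa13 were found in 2.97% of those windows, and as many as in Hoxd13 in 5.19%. GGGCGG matched 5 times in Hoxa13, 7 times in Hoxd13, where several matches overlap, and 0 times in Hoxd8. Hoxd13 also held 2 overlapping TATAAA matches on opposite strands, and each of the 3 windows held 1 CCAAT. These motifs occurred in 12.4% (TATAAA), 33.8% (CCAAT) and 32.7% (GGGCGG) of all windows. Of 22 Hox genes with a window in the table, 4 held TATAAA, 14 CCAAT and 10 GGGCGG. A match describes the letters and shows no binding.

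Which Hox genes the CAFs read was asked without regard to genotype. A gene was counted as expressed where its mean reached 1 CPM in at least 1 genotype, and 28 of 39 did. Posterior genes made up 14 of the 28, out of 16 posterior members. Of the 15 central genes 10 were expressed, and of the 8 anterior genes 4. By cluster, 8 of 11 Hoxa, 6 of 10 Hoxb, 8 of 9 Hoxc and 6 of 9 Hoxd genes were expressed. The member nearest above the threshold was Hoxa13, with a highest genotype mean of 1.52 CPM, and the nearest below it was Hoxc5 at 0.788 CPM. Of the 11 genes below, 6 still passed the count filter. The other 5 did not, and their largest counts in any library were 25.3 for Hoxa2, 6 for Hoxd12 and 2 for Hoxb13. Hoxb1 and Hoxd1 had 0 counts in all libraries, where a count of 0 allows a level of up to 0.142 to 0.147 CPM in a Thbs2KO library and 0.126 to 0.131 CPM in a WT library (3 counts, for counting error only). In bulk RNA, fewer cells that express a gene and less RNA per cell cannot be told apart.

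**Figure D1:**
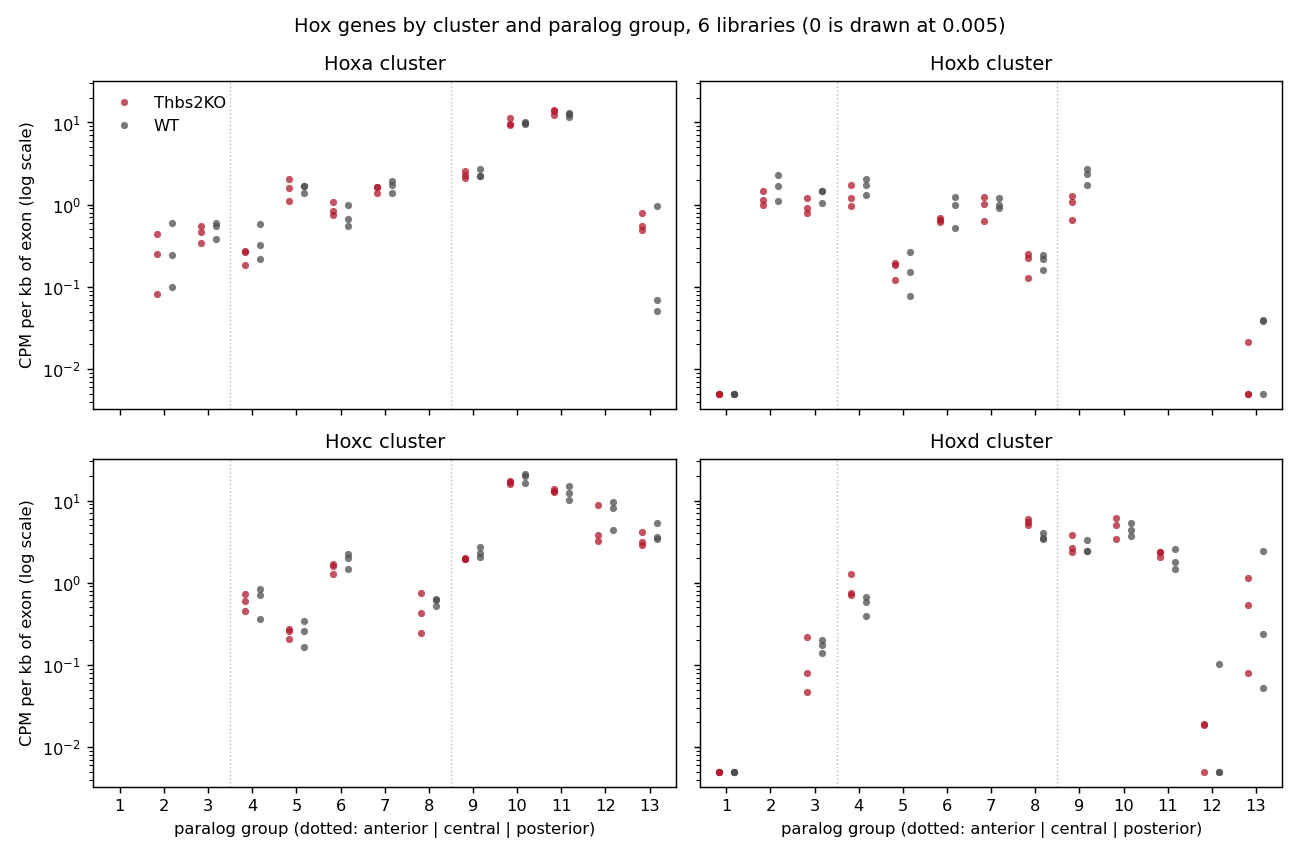
Level of Hox genes in CPM per kilobase of exon (log scale) against paralog group in the 4 clusters, with 1 point per library, Thbs2KO in red and WT in grey. The highest levels lie at groups 10 and 11 of Hoxa and Hoxc, while the group 13 genes of Hoxa and Hoxd scatter widely between libraries.

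Levels were compared between genes after division by exon length, as CPM per kilobase. Hoxc10 was the highest Hox gene in both genotypes, and Hoxa11, Hoxc11 and Hoxa10 filled the next 3 ranks in each, Hoxa11 second in Thbs2KO and Hoxc11 second in WT. Hoxc10, active in hindlimb and other caudal tissue of the embryo, had levels of 15.9, 16.8 and 17.3 CPM per kilobase in Thbs2KO replicates 1, 2 and 3, and 21.0, 16.5 and 19.7 CPM per kilobase in WT replicates 1, 2 and 3. The genotypes overlapped. Hoxa11, which patterns limb and uterus, had 13.9, 14.4 and 12.3 CPM per kilobase in Thbs2KO and 11.6, 12.9 and 13.1 CPM per kilobase in WT. Hoxc11 averaged 13.2 ± 0.698 CPM per kilobase in Thbs2KO and 12.5 ± 2.34 in WT, and Hoxa10, a regulator of uterus and axial skeleton, 10.1 ± 1.18 and 9.81 ± 0.195 (SD, n = 3 each). Hoxa11 and Hoxc11 did not differ beyond their spread within either genotype.

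In the other clusters the leading genes were lower. In Hoxd the highest mean over the 6 libraries was that of Hoxd10, a limb and caudal patterning gene, with 4.999, 3.45 and 6.11 CPM per kilobase in Thbs2KO and 3.67, 5.33 and 4.38 CPM per kilobase in WT. Hoxd8, a central gene, followed closely with 5.46 ± 0.479 CPM per kilobase in Thbs2KO and 3.64 ± 0.294 in WT (SD, n = 3 each). The order in Hoxd depends on the length used. Hoxd11 holds 4212 bases of exon but 1111 in its longest coding transcript. Without division by length Hoxd8 led, with a mean of 12.5 CPM against 8.91 for Hoxd11 and 8.46 for Hoxd10. In Hoxb the highest mean over the 6 libraries was that of Hoxb9. It had 1.27, 1.06 and 0.646 CPM per kilobase in Thbs2KO and 2.74, 1.75 and 2.39 CPM per kilobase in WT. Within Thbs2KO alone, Hoxb4 and Hoxb2 had higher means than Hoxb9, 1.30 and 1.20 against 0.993 CPM per kilobase. Hoxb thus held no gene near the levels of Hoxc10 or Hoxa11. Hoxb13, the posterior end of the Hoxb cluster, had 1, 0 and 0 counts in Thbs2KO and 2, 0 and 2 in WT.

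Summed by paralog group over the 4 clusters, groups 10 and 11 stood apart from all others. Group 10 summed to 31.6 ± 2.88 CPM per kilobase in Thbs2KO and 33.3 ± 1.69 in WT, and group 11 to 29.0 ± 1.601 and 26.96 ± 3.31 (SD, n = 3 each). Group 9 summed to 8.22 ± 0.440 and 9.78 ± 0.438. Groups 2 and 3, which pattern hindbrain and neck, summed to 1.46 ± 0.423 and 1.54 ± 0.408 in Thbs2KO and 2.01 ± 0.803 and 2.001 ± 0.333 in WT. Groups 12 and 13 lay below group 10, at 5.26 ± 3.03 and 4.59 ± 0.372 in Thbs2KO and 7.35 ± 2.64 and 5.36 ± 1.43 in WT. The level therefore peaked at groups 10 and 11, and not at the 5′ end.

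**Figure D2:**
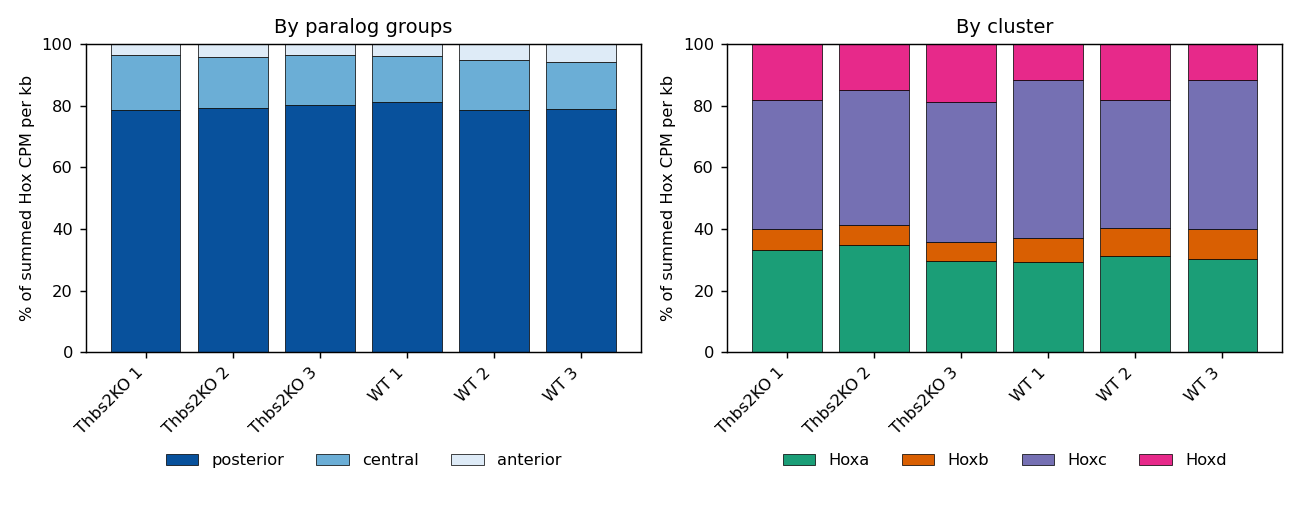
Share of the summed Hox level (CPM per kilobase of exon) in each library, split by paralog groups (left) and by cluster (right), with Thbs2KO libraries left of WT libraries. Posterior genes hold 78.7% to 81.2% of the sum in every library, and Hoxc is the largest cluster in all 6.

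Posterior genes held 78.7%, 79.4% and 80.2% of the summed Hox level in Thbs2KO replicates 1, 2 and 3, and 81.2%, 78.7% and 79.0% in WT replicates 1, 2 and 3. The means of 79.4% ± 0.755 and 79.6% ± 1.34 differed by less than the spread between libraries. Anterior genes held 3.66% ± 0.364 in Thbs2KO and 4.99% ± 1.00 in WT, and the genotypes overlapped. Central genes held 17.8%, 16.6% and 16.4% in Thbs2KO (16.9% ± 0.786) and 14.9%, 16.1% and 15.1% in WT (15.4% ± 0.673). For the central share the genotypes did not overlap. The central sum was 16.8 ± 0.865 CPM per kilobase in Thbs2KO and 16.0 ± 0.765 in WT. Hoxd8 alone held 5.46 ± 0.479 and 3.64 ± 0.294 of it. Of the 15 central genes, 5 had log2 fold changes (Thbs2KO over WT) above 0 and 10 below, so the share does not describe a rise of central genes in general. By cluster, Hoxc held 43.7% ± 1.72 of the sum in Thbs2KO and 46.8% ± 4.98 in WT, and Hoxa 32.5% ± 2.68 and 30.2% ± 0.920. Hoxb held 6.93%, 6.41% and 6.24% in Thbs2KO and 7.92%, 9.24% and 9.80% in WT, so that the genotypes did not overlap. The Hoxb sum was 6.46 ± 0.321 CPM per kilobase in Thbs2KO and 9.37 ± 1.32 in WT. Hoxb9 alone held 0.993 ± 0.317 and 2.30 ± 0.502 of it. Hoxd held 18.0%, 14.9% and 18.9% in Thbs2KO and 11.7%, 18.3% and 11.7% in WT. Here WT replicate 2 lay within the range of the Thbs2KO libraries and the other WT libraries below it (all SD, n = 3 each).

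Thbs2KO was then compared with WT for each gene, in an edgeR quasi-likelihood test fitted on the whole table. The question was whether CAFs from Thbs2KO hosts carry another positional set. None of the 34 Hox genes that passed the filter changed (Benjamini-Hochberg adjusted p below 0.05), against 1.09% of all 13590 genes tested. By direction, edgeR called 0.552% of all genes higher and 0.537% lower. With p not adjusted and under 0.05, 3 Hox genes stood out, 8.82% of those tested against 13.3% of all genes. Of them 1 was higher in Thbs2KO, where 5.72% of all genes were, and 2 were lower, where 7.56% of all genes were. DESeq2 called 2 Hox genes, or 5.88%, against 5.14% of all genes, and limma-voom called 0. The genotypes did not overlap for 5 Hox genes, or 14.7%, against 19.6% of all genes. Of these, 2 were higher in Thbs2KO (9.36% of all genes) and 3 were lower (10.3% of all genes). These shares lie near those of all genes. Log2 fold changes were below 0 for 22 of the 34 (64.7%, against 50.9% of all genes), with a median of -0.12, while the median of all genes was -0.0038.

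**Figure D3:**
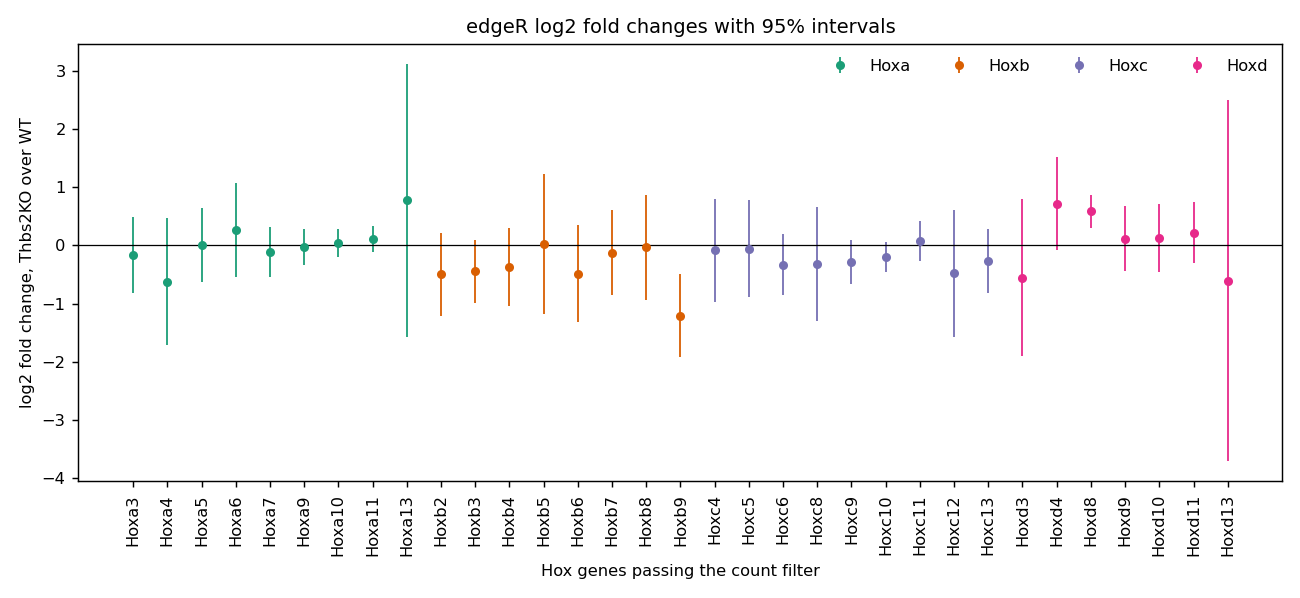
Log2 fold change of Thbs2KO over WT for Hox genes that passed the count filter, ordered by cluster and paralog group, with 95% intervals not adjusted for the number of genes. The intervals of Hoxd8 and Hoxb9 leave out 0, and those of Hoxa13 and Hoxd13 are the widest.

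Hoxd8 (ENSMUSG00000027102.4, chromosome 2, 74704615 to 74707933, plus strand), which acts in the trunk of the embryo, had the smallest p. It measured 15.04, 13.7 and 16.3 CPM in Thbs2KO replicates 1, 2 and 3, and 9.69, 10.9 and 9.39 CPM in WT replicates 1, 2 and 3. The lowest Thbs2KO value was above the highest WT value. The log2 fold change was 0.58 with a standard error of 0.120 and a 95% interval of 0.30 to 0.87 (edgeR, unadjusted p = 0.00205, Benjamini-Hochberg adjusted p = 0.088). DESeq2 placed it past the threshold (Benjamini-Hochberg adjusted p = 0.00464). Its counts, 224 to 333 per library, shared no exon with another annotated gene. Upstream of Hoxd8, the region shown above holds a single motif match of those searched. The summed level of endothelial markers was also higher in 2 of 3 Thbs2KO libraries than in any WT library, within the ranges given above. Of these markers only Kdr had the order of libraries of the sum. Kdr measured 44.97, 28.04 and 21.46 CPM in Thbs2KO and 2.497, 26.33 and 10.56 CPM in WT. Tek, Pecam1 and Cdh5 did not have this order, and Tek was highest in Thbs2KO replicate 3 and lowest in Thbs2KO replicate 2. The part of these markers in the value of Hoxd8 was not tested.

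Its neighbour Hoxd4, which acts in hindbrain and neck, measured 2.23, 2.12 and 3.78 CPM in Thbs2KO and 1.73, 1.99 and 1.16 CPM in WT. The genotypes did not overlap, but the difference did not pass the test (log2 fold change 0.72 with an SE of 0.333, edgeR, Benjamini-Hochberg adjusted p = 0.429). Exons of Hoxd3 and Hoxd4 overlap on the same strand, over 52.3% of Hoxd4 counting all its overlaps, and RSEM divides such reads by an estimate. Hoxd3 had a log2 fold change of -0.56, of opposite sign, so the division of shared reads limits both values. The 4 posterior Hoxd genes that passed the filter, Hoxd9, Hoxd10, Hoxd11 and Hoxd13, had log2 fold changes of 0.11, 0.12, 0.22 and -0.61 and overlapped between genotypes.

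**Figure D4:**
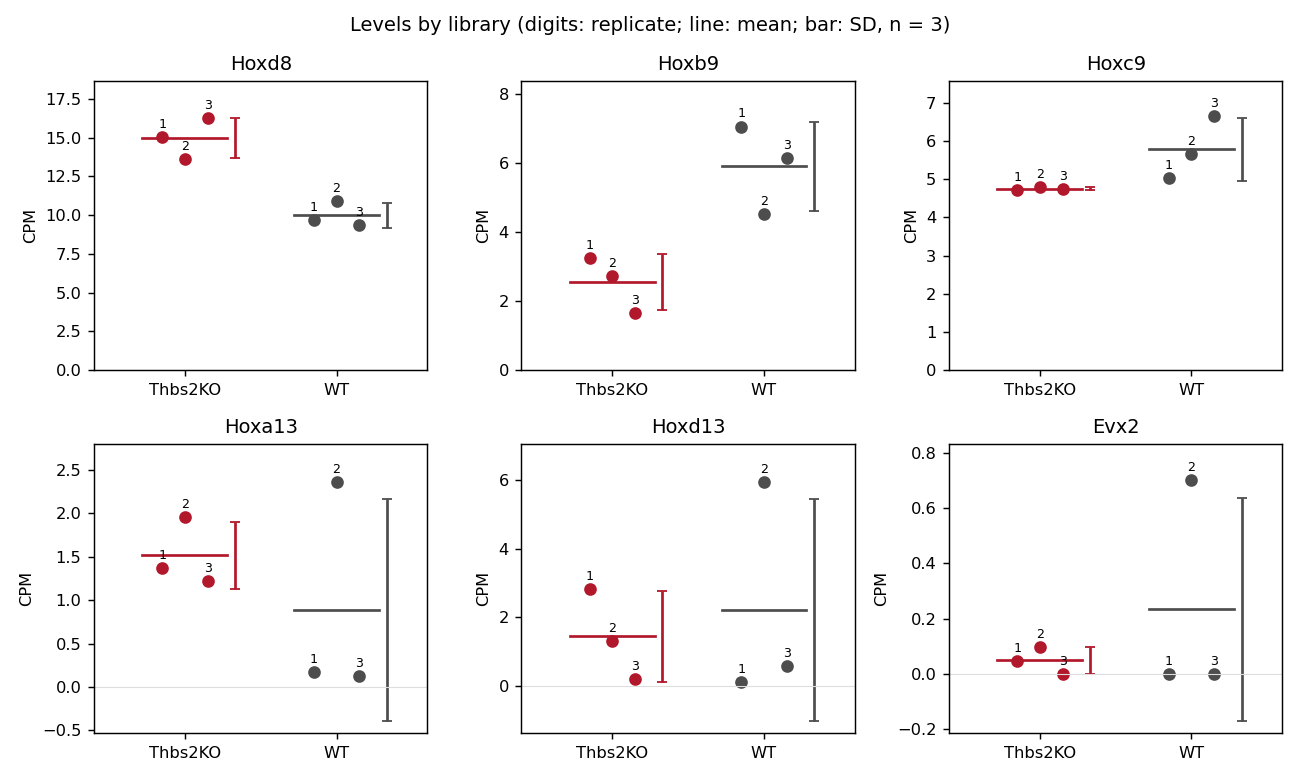
CPM by library for Hoxd8, Hoxb9, Hoxc9, Hoxa13, Hoxd13 and Evx2, the gene beside Hoxd13, with Thbs2KO left of WT (points: libraries with replicate number, line: mean, bar: SD, n = 3 each). Genotypes do not overlap in the upper row, and WT replicate 2 is the highest library in each panel of the lower row.

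Hoxb9 (ENSMUSG00000020875.9, chromosome 11, 96271457 to 96276595, plus strand), a gene of thoracic identity, measured 3.26, 2.74 and 1.66 CPM in Thbs2KO and 7.06, 4.51 and 6.16 CPM in WT. The highest Thbs2KO value was below the lowest WT value. The log2 fold change was -1.21 with a standard error of 0.298 and a 95% interval of -1.92 to -0.50 (edgeR, unadjusted p = 0.00542, Benjamini-Hochberg adjusted p = 0.139). DESeq2 gave a Benjamini-Hochberg adjusted p of 0.0115. The other Hoxb genes that passed the filter were Hoxb2 to Hoxb8, of which 6 of 7 had log2 fold changes below 0, from -0.50 for Hoxb2 to -0.035 for Hoxb8, with Hoxb5 at 0.026. For each of these 7 the genotypes overlapped. Without both WT replicate 1 and Thbs2KO replicate 3, Hoxb3 passed the threshold with a log2 fold change of -0.77 (edgeR, Benjamini-Hochberg adjusted p = 0.0394). Hoxb3 and Hoxb2 share 52.9% and 27.3% of their exons with the antisense gene Hoxb3os, and these libraries do not mark strand. The summed levels of epithelial and of glial and neuronal markers were also lower in every Thbs2KO library than in any WT library, as given above, and their part in the value of Hoxb9 was not tested.

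For each Hoxa and Hoxc gene described next, the 95% interval held 0. Hoxa10 had a log2 fold change of 0.037 with a 95% interval of -0.20 to 0.28, Hoxa9 of -0.029 (-0.34 to 0.29) and Hoxa11 of 0.11 (-0.12 to 0.34). The genotypes overlapped for all 3 genes. Hoxa11 shares 35.0% of its exon length with its antisense gene Hoxa11os, whose log2 fold change was 0.11. Hoxa3, Hoxa4, Hoxa5, Hoxa6 and Hoxa7 had log2 fold changes from -0.62 for Hoxa4 to 0.27 for Hoxa6. In Hoxc, 8 of 9 were below 0, from -0.48 for Hoxc12 to -0.057 for Hoxc5, and Hoxc11 stood at 0.079. Hoxc9, the only one of them whose genotypes did not overlap, averaged 4.76 ± 0.0355 CPM in Thbs2KO and 5.78 ± 0.821 CPM in WT (SD, n = 3 each, log2 fold change -0.28, edgeR, Benjamini-Hochberg adjusted p = 0.531). None of the Hoxa and Hoxc genes named in this paragraph passed the threshold. Hoxc10 had an interval of -0.45 to 0.066 around a log2 fold change of -0.19.

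Hoxa13 and Hoxd13, the hindgut genes of group 13, varied widely between libraries of the same genotype, Hoxa13 in WT and Hoxd13 in both genotypes. Hoxa13 (ENSMUSG00000038203.18, chromosome 6, 52257694 to 52260880, minus strand) had 29, 40 and 25 counts in Thbs2KO replicates 1, 2 and 3, or 1.37, 1.96 and 1.22 CPM, and 4, 54 and 3 counts in WT replicates 1, 2 and 3, or 0.172, 2.37 and 0.126 CPM. WT replicate 2 was thus the highest library and the other WT libraries the lowest. The exact Poisson 95% interval of the count was 40.6 to 70.5 in WT replicate 2 and did not reach those of WT replicates 1 and 3, which were 1.09 to 10.2 and 0.619 to 8.77 (counting error only). The log2 fold change was 0.78 with a 95% interval of -1.57 to 3.12 (edgeR, Benjamini-Hochberg adjusted p = 0.824). Without WT replicate 2 it was 3.31 (edgeR, Benjamini-Hochberg adjusted p = 0.0593).

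Hoxd13 (ENSMUSG00000001819.4, chromosome 2, 74668310 to 74671599, plus strand) had 60, 27 and 4 counts in Thbs2KO, or 2.84, 1.32 and 0.196 CPM, and 3, 136 and 14 counts in WT, or 0.129, 5.96 and 0.587 CPM. WT replicate 2 was again the highest library, and Thbs2KO replicate 3 and WT replicate 1 were the lowest. The highest library stood 46.1-fold above the lowest, against 18.8-fold for Hoxa13 and 1.23-fold for Hoxa10. Over the 6 libraries the coefficient of variation of Hoxd13 was 122.7%, and 0.831% of the 1684 tested genes with a mean level within 2-fold of it varied as much. For Hoxa13 it was 76.0%, and 8.54% of 1652 such genes varied as much. These were the highest coefficients among the Hox genes tested. Both genes were described in detail after their values were seen, so these percentages are no test. The log2 fold change of Hoxd13 was -0.61 (95% interval -3.72 to 2.50, edgeR, Benjamini-Hochberg adjusted p = 0.909), and without WT replicate 2 it was 2.01 (edgeR, Benjamini-Hochberg adjusted p = 0.656). The sign of the Hoxd13 difference by edgeR thus depended on WT replicate 2. It depended on the method too, as limma-voom gave 0.23 with all 6 libraries.

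Genes beside Hoxd13 were near 0 outside that library. Evx2, a homeobox gene that borders Hoxd13, had 1, 2 and 0 counts in Thbs2KO and 0, 16 and 0 counts in WT. Hoxd12 had 1, 0 and 1 counts in Thbs2KO and 0, 6 and 0 in WT. WT replicate 2 was the only library with more than 2 counts of either. Evx1, which lies beyond Hoxa13, had 0, 0 and 0 counts in Thbs2KO and 2, 0 and 1 in WT, so that it was not detectable at this depth in WT replicate 2. The sum of pericyte and smooth muscle markers was highest in WT replicate 2, at 1397 CPM, and next in WT replicate 3, at 1039 CPM. Hoxa13 was lowest in WT replicate 3. Cnn1 and Actg2 gave 421.1 and 442.2 CPM of the sum in WT replicate 2, and 414.9 and 298.4 CPM in WT replicate 3. Cnn1, Actg2, Myh11, Mcam and Lmod1 had this order of libraries, and Des, Rgs5 and Cspg4 did not. Cspg4 was highest in Thbs2KO replicate 2, at 160.8 CPM. The part of these markers in the Hox and Evx2 values was not tested.

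The Hoxc genes of groups 12 and 13 did not follow that order. Hoxc12 measured 3.31, 3.91 and 8.996 CPM in Thbs2KO and 9.90, 4.47 and 8.26 CPM in WT. Hoxc13, which is required in hair follicles and nails, measured 7.71, 6.998 and 10.3 CPM in Thbs2KO and 12.96, 8.37 and 8.80 CPM in WT. For both genes Thbs2KO replicate 3 and WT replicate 1 were the highest libraries of their genotypes, the ones where Hoxd13 was lowest. For both, the genotypes overlapped, with log2 fold changes of -0.48 for Hoxc12 and -0.27 for Hoxc13 (edgeR, Benjamini-Hochberg adjusted p = 0.749 and 0.719).

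Hox proteins bind DNA together with the TALE homeodomain cofactors of the Pbx, Meis and Pknox families. All 9 cofactor genes listed passed the filter and 0 changed by edgeR. Before adjustment, p was under 0.05 for 4 of the 9, 3 higher and 1 lower, against 13.3% of all genes. By DESeq2, 2 rose and 1 fell, or 3 of the 9, against 5.14% of all genes, and limma-voom called 0. The median log2 fold change of the 9 was 0.21. Pknox2 measured 53.5, 53.1 and 61.0 CPM in Thbs2KO and 42.6, 39.2 and 37.8 CPM in WT, and the genotypes did not overlap (log2 fold change 0.49 with an SE of 0.0892, edgeR, Benjamini-Hochberg adjusted p = 0.0691). Meis3 measured 8.27, 7.88 and 11.2 CPM in Thbs2KO and 15.2, 13.7 and 13.7 CPM in WT (log2 fold change -0.64 with an SE of 0.162, edgeR, Benjamini-Hochberg adjusted p = 0.145).

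The cofactor Meis1 was named after its values were seen. Meis1 measured 46.4, 42.9 and 45.8 CPM in Thbs2KO replicates 1, 2 and 3, and 21.6, 38.9 and 21.6 CPM in WT replicates 1, 2 and 3. WT replicate 2 was the WT library nearest to the Thbs2KO libraries, and no WT library reached them. The log2 fold change was 0.72 (edgeR, Benjamini-Hochberg adjusted p = 0.259).

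**Figure D5:**
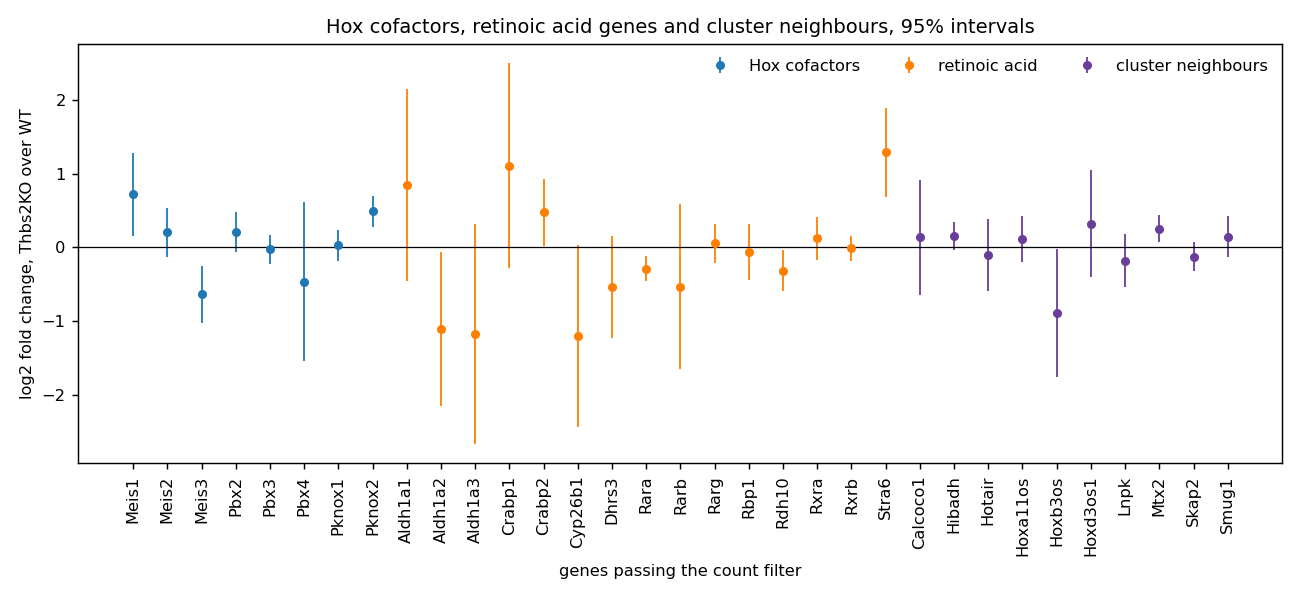
Log2 fold change of Thbs2KO over WT for Hox cofactors, retinoic acid genes and neighbours of the clusters that passed the count filter, with 95% intervals not adjusted for the number of genes. Meis1 and Pknox2 lie above 0 and Meis3 below it, and none passed the adjusted threshold.

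Retinoic acid switches on Hox genes from the 3′ end in the embryo. Of 18 genes of its synthesis, transport, breakdown and receptors, 15 passed the filter and 0 changed by edgeR, though before adjustment p was under 0.05 for 5 of the 15, 2 higher and 3 lower, against 13.3% of all genes. By DESeq2, 1 rose and 1 fell, or 2 of the 15, against 5.14% of all genes, and limma-voom called 0. The median log2 fold change was -0.059. Stra6, the membrane receptor for retinol-binding protein, measured 5.34, 6.95 and 8.80 CPM in Thbs2KO and 2.20, 3.11 and 3.31 CPM in WT (log2 fold change 1.29 with an SE of 0.255, edgeR, Benjamini-Hochberg adjusted p = 0.079). Rara, a nuclear receptor for retinoic acid, measured 32.8, 31.5 and 32.5 CPM in Thbs2KO and 39.1, 40.5 and 38.5 CPM in WT (log2 fold change -0.29 with an SE of 0.0689, edgeR, Benjamini-Hochberg adjusted p = 0.129). For neither gene did the genotypes overlap.

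The ParaHox genes, relatives of the Hox genes that include Cdx2 of the intestinal epithelium, gave no testable signal. None of the 6 passed the filter. Cdx1 had 2 counts in Thbs2KO replicate 3 and Cdx2 had 4 counts in WT replicate 3, and both had 0 elsewhere. Gsx1, Gsx2, Pdx1 and Cdx4 had 0 counts in all 6 libraries.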

How the data were processed

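RNA-seq of 3 Thbs2KO and 3 WT CAF libraries was analysed from 1 table of expected counts. The authors deposited expected counts, reads per gene estimated by RSEM with no scaling across libraries. The submitters' processing notes name Trimmomatic 0.39, STAR 2.7.3a, RSEM and the mm10 build; the annotation release is not given in the sources used here. The library kit named in the labels' protocols does not mark strand. From 3.80% to 3.88% of values per library were not whole, and all were rounded before testing.

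Genes passing filterByExpr (13590 of 55401) were tested for Thbs2KO against WT with the quasi-likelihood test of edgeR 4.0.16 in R 4.3.3 (TMM, robust, genotype as the only term), and p-values were adjusted by Benjamini-Hochberg over all of them, at a threshold of 0.05. Standard errors and 95% intervals were derived from the F statistic. CPM used TMM factors for all genes, and CPM per kilobase used the union of exons in GENCODE M21 (GRCm38, the build of mm10). Steps were tested on simulated counts. Alternatives used DESeq2 1.42.0 and limma 3.58.1, other scalings, filters, thresholds and libraries. Promoter sequences came from RefSeq (GRCm38.p6), which had windows for 22 Hox genes. Figures used matplotlib 3.10.9 in Python 3.11.15.

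Members and lists were chosen with earlier results of these data known. The rule for named genes took every Hox gene, gave full values for those with an unadjusted p under 0.05 and the highest per length in each cluster, and took the 2 smallest p of each other list, except that some genes counted among the members and lists, and 1 of the 2 cluster neighbours, are not reported here by name; Hoxd4, Hoxc9, Hoxc12, Hoxc13, Hoxa13, Hoxd13, Meis1, Hotair, Hottip, Evx1 and Evx2 were given in more detail after their values were seen.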

Additional observations from a re-analysis of the deposited data

How the results depend on the processing

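The count of 0 Hox genes called by edgeR (3 at an unadjusted p under 0.05) held under 14 of 16 alternatives. It was 2 by DESeq2 (Hoxd8 and Hoxb9) and 1 without both WT replicate 1 and Thbs2KO replicate 3 (Hoxb3). Over all genes the count of 148 moved more, to 699 by DESeq2, 1519 without both of those libraries, 245 with no filter on low counts, 40 with Thbs2KO replicates 1 and 2 summed, and 38 to 397 when each library was left out in turn. Hoxd8 kept its sign under all 16 alternatives, with log2 fold changes of 0.50 to 0.66 and adjusted p of 0.00464 to 0.347, as did Hoxb9 (-1.42 to -0.83, 0.0115 to 0.386).

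Of the 34 log2 fold changes, 19 kept their sign throughout and 15 did not. Leaving out each library in turn, or both WT replicate 1 and Thbs2KO replicate 3, gave ranges across 0 for Hoxa3 (-0.51 to 0.0077), Hoxa5 (-0.22 to 0.24), Hoxa7 (-0.22 to 0.0044), Hoxa9 (-0.0995 to 0.074), Hoxa10 (-0.063 to 0.095), Hoxb5 (-0.31 to 0.56), Hoxb7 (-0.34 to 0.099), Hoxb8 (-0.22 to 0.34), Hoxc4 (-0.37 to 0.18), Hoxc5 (-0.28 to 0.21), Hoxc8 (-0.82 to 0.028), Hoxc11 (-0.045 to 0.23), Hoxd9 (-0.18 to 0.29), Hoxd10 (-0.20 to 0.32) and Hoxd13 (-1.54 to 2.01). Without both, the sign turned for Hoxa10, Hoxb5, Hoxb8, Hoxc8, Hoxc11, Hoxd9 and Hoxd10. With Thbs2KO replicates 1 and 2 summed it turned for Hoxa5 (-0.094) and Hoxb5 (-0.039), and with limma-voom for Hoxa5 (-0.031) and Hoxd13 (0.23). The cause was not tested.

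The number of expressed genes was 34 at a mean of at least 0.5 CPM and 23 at 2 CPM. The posterior share was 71.1% in Thbs2KO and 70.2% in WT when only groups 10 to 13 were counted, and 77.3% and 77.1% without division by length. With the length of the longest coding transcript, an alternative chosen after seeing the data, it was 78.01% and 77.5%. Leaving out each library gave 79.0% to 79.8% and 78.9% to 80.1%.

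The labels do not say whether replicate numbers pair the samples, and no such pairing was seen. Same-numbered libraries had correlations of deviations from their group means of -0.29, 0.17 and -0.33, and not every library correlated best with its own number. This check cannot exclude pairing, because the 3 deviations within a genotype sum to 0 and so depend on each other. With the replicate block, 0 Hox genes and 30 of all genes were called, and Hoxa5 turned to -0.027. Depth limits Hoxa13, Hoxd13 and the 5 genes that did not pass the filter, whose counts fell to 4 or fewer in some libraries.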

Other observations

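Polycomb proteins keep inactive Hox clusters silent, and trithorax proteins keep active ones open. Of 27 Polycomb genes, all of which passed the filter, 0 changed by edgeR, DESeq2 or limma-voom, though before adjustment p was under 0.05 for 3 higher genes and 1 lower gene (4 of 27, against 13.3% of all genes), with a median log2 fold change of 0.039. Rnf2, a ubiquitin ligase of Polycomb repressive complex 1, averaged 64.1 ± 8.47 CPM in Thbs2KO and 51.5 ± 1.63 CPM in WT, and Bmi1, of the same complex, 59.8 ± 2.41 and 52.4 ± 0.778 CPM (SD, n = 3 each, edgeR, Benjamini-Hochberg adjusted p = 0.259 and 0.279). Of 11 trithorax and H3K27 demethylase genes 0 changed by edgeR or limma-voom, 1 was lower by DESeq2 (against 5.14% of all genes called), and before adjustment p was under 0.05 for 1 lower gene (against 13.3% of all genes). Kmt2a, the methyltransferase that maintains Hox expression, measured 71.0, 77.0 and 71.7 CPM in Thbs2KO and 89.8, 91.4 and 91.2 CPM in WT (log2 fold change -0.31 with an SE of 0.0641, edgeR, Benjamini-Hochberg adjusted p = 0.089). The genotypes did not overlap. Rbbp5, a subunit of the same methyltransferase complexes, averaged 35.6 ± 0.816 CPM in Thbs2KO and 31.9 ± 1.22 CPM in WT (SD, n = 3 each).

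Of the genes around and within the clusters that are no members, 21 were in the table and 11 passed the filter, and 0 changed by edgeR, DESeq2 or limma-voom, though before adjustment p was under 0.05 for 1 higher and 2 lower genes (3 of 11, against 13.3% of all genes). Mtx2, the mitochondrial gene beside the Hoxd cluster, averaged 43.0 ± 2.59 CPM in Thbs2KO and 36.1 ± 1.20 CPM in WT (SD, n = 3 each, edgeR, Benjamini-Hochberg adjusted p = 0.222). Hotair, a noncoding RNA of the Hoxc cluster between Hoxc11 and Hoxc12, had 46, 52 and 62 counts in Thbs2KO and 60, 66 and 68 counts in WT (log2 fold change -0.10). Hottip, which lies beyond Hoxa13, had 1 count in all, in Thbs2KO replicate 3.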
